A study of Homo sapiens with 12 samples.

Results

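Hydroxymethylation and methylation of DNA were followed here over 9 genes of the PI3K, AKT and mTOR pathway in HL-60 cells: PIK3CA, PIK3CB, PIK3CD, PIK3CG, PIK3R1, AKT1, MTOR, RPTOR and RPS6KB1. A region was counted for a gene where the deposited annotation placed it inside that gene or at most 5000 bases from one of its starts. For 5-hydroxymethylcytosine (5hmC), 205 of 327931 regions belonged to these genes and all 9 had at least 1. For 5-methylcytosine (5mC), 57 of 65535 listed regions belonged to 7 of the 9 genes, and PIK3R1 and AKT1 had no region in the 5mC list.

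HL-60, a human cell line from an acute promyelocytic leukemia, can mature toward neutrophil-like cells. The differentiated group was HL-60 kept for 7 days in medium with 1.5% dimethyl sulfoxide (DMSO, 211 mM), renewed each day, and taken as SYTOX Blue-, CD11b+. The undifferentiated group was HL-60 of the same line taken as SYTOX Blue-, CD11b-, so that DMSO exposure and the CD11b gate cannot be told apart. SYTOX Blue stains dead cells, and CD11b is an integrin chain of maturing myeloid cells. Each group had 3 biological replicates of this 1 line, and the DNA of each was divided between an antibody capture of 5mC (MeDIP) and one of 5hmC (hMeDIP), which gave 12 libraries.

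Class I PI3-kinases turn the membrane lipid PIP2 into PIP3, which brings the kinase AKT to the membrane. AKT signals on to the mTOR kinase, which works in the mTORC1 complex with the scaffold RAPTOR, the product of RPTOR, and drives protein synthesis through S6 kinase, the product of RPS6KB1. In neutrophils, the gamma and delta PI3-kinases act downstream of chemoattractant and cytokine receptors. 5mC is laid down mostly at CpG dinucleotides, and TET enzymes oxidise it to 5hmC, a mark often found over gene bodies and enhancers.

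Both marks are carried by the C of a CpG. The starts of 3 mTORC1 genes are shown because 2 of these genes lost 5hmC and 1 gained it in the gene totals described below, and because RefSeq lists a single start for each. The sequences run from 250 bases before to 50 after the start in RefSeq GRCh38.p14, 5′ to 3′ on the gene's strand, with each CG in capitals. MTOR lies on the minus strand of chromosome 1 and RPTOR and RPS6KB1 on the plus strand of chromosome 17.
MTOR: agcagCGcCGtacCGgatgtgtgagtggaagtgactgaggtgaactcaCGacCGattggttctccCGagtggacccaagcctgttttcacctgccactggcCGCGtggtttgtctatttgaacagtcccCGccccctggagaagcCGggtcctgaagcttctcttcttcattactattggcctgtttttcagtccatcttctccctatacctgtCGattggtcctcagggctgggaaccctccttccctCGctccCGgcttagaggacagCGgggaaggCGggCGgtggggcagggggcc
RPTOR: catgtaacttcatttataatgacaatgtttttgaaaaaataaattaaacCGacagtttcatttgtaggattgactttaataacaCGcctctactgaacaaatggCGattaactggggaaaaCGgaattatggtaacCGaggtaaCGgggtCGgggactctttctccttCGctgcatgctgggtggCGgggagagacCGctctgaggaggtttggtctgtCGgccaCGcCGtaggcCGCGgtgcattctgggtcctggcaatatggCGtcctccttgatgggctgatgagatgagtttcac
RPS6KB1: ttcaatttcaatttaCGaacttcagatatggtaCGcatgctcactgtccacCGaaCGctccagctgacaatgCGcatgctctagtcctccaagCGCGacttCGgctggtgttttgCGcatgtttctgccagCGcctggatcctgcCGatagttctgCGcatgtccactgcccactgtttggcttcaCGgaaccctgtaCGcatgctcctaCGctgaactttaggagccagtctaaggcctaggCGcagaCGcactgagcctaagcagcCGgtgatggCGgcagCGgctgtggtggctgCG
The dinucleotide CG, which reads the same on both strands, occurs 16 times in the MTOR promoter, 16 times in the RPTOR promoter and 21 times in the RPS6KB1 promoter. Over the 35116 promoters of the table the median is 14, and 47.5% hold at least 16 and 39.5% at least 21. The regions of both marks are given in hg19, a different build, and were not placed on these sequences.

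The 5hmC regions held 13010267 to 33693880 counts per library and the listed 5mC regions 6076100 to 9670011. Gene levels are given as CPM, which scales each library to a common total, over all counts assigned to genes and after TMM scaling between libraries, and fold changes are log2 values of differentiated over undifferentiated with their standard error (SE). The test was edgeR's quasi-likelihood F test with Benjamini-Hochberg adjustment over all genes or regions, with a threshold of 0.05. Capture depends on the number of gene copies as well as on the mark, and no input library was analysed here. MYC, known to be amplified in HL-60, ranked 12 of 20430 genes by mean 5hmC level, with 1153 CPM in differentiated and 1516 CPM in undifferentiated cells, against a median gene of 23.2 CPM.

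Of the 9 genes, 5 had less 5hmC in differentiated cells (RPS6KB1, PIK3CD, PIK3CA, MTOR and PIK3CB), 2 had more (RPTOR and AKT1), and PIK3CG and PIK3R1 did not pass the test. Over all 20430 genes, 51.6% were called, 25.8% lower and 25.7% higher, so that a called gene was common in these data. The median log2 fold change was -0.25 over the 9 genes and 0.01 over all genes. The 7 called genes had no overlap between the libraries of the groups, which also held for 57.1% of all genes. Log2 fold changes ranged from -0.63 in RPS6KB1 to 0.26 in AKT1. In pooled DNA, fewer marked cells and fewer marked cytosines per cell cannot be told apart.

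**Figure D1:**
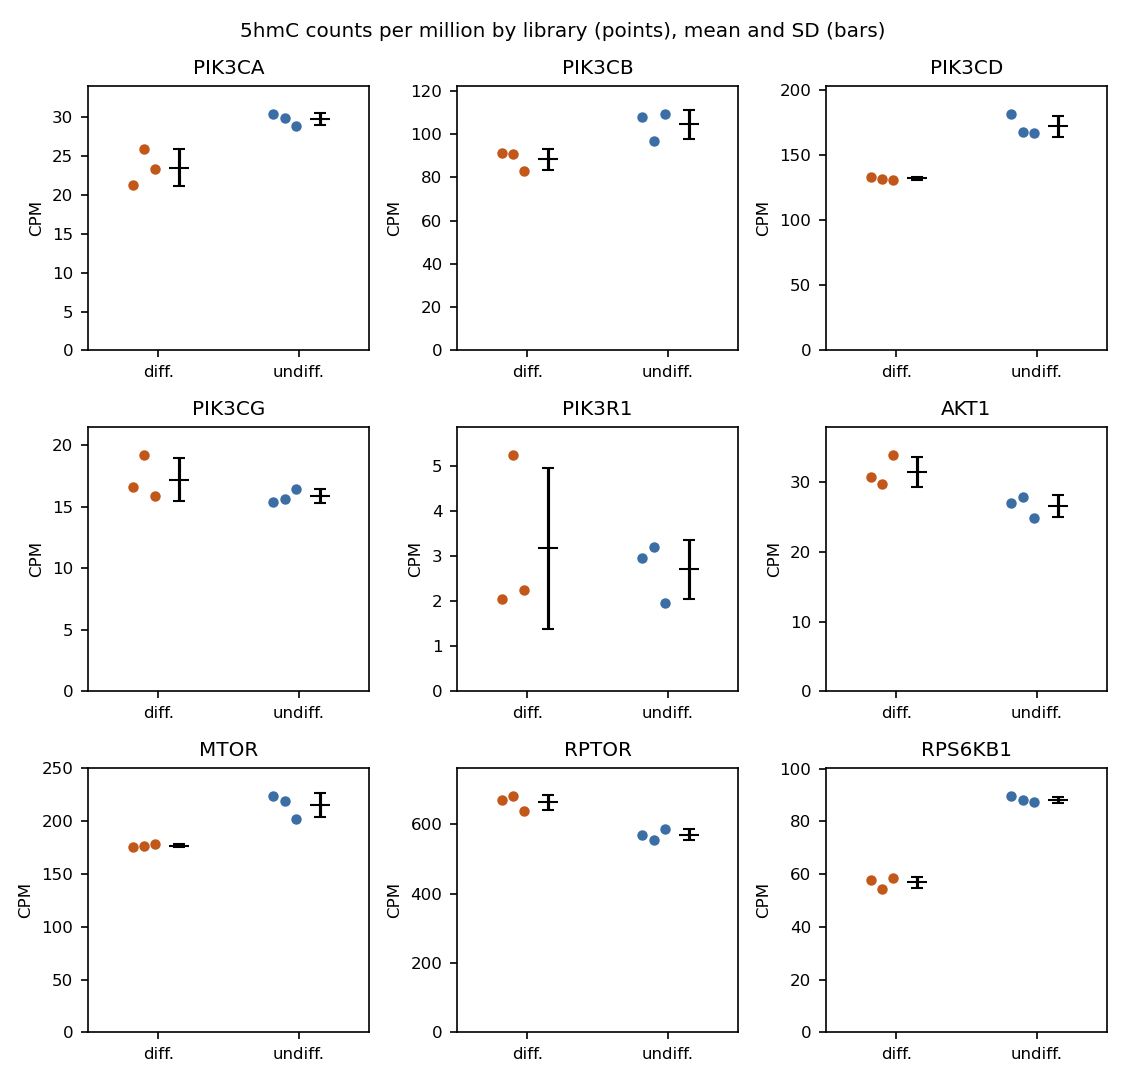
Summed 5hmC level of each gene in CPM (vertical axes, starting at 0), with 1 point per library, differentiated (diff.) on the left and undifferentiated (undiff.) on the right, and bars for mean and SD (n = 3 each). RPS6KB1 shows the widest relative gap, with 54.5 to 58.3 CPM in differentiated and 87.3 to 89.5 CPM in undifferentiated libraries, while PIK3CG and PIK3R1 overlap.

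RPS6KB1 encodes S6 kinase 1, the mTORC1 target that phosphorylates ribosomal protein S6. Its 15 regions together held 57.9, 54.5 and 58.3 CPM of 5hmC in differentiated replicates 1 to 3, against 89.5, 87.9 and 87.3 CPM in the undifferentiated ones. All 3 differentiated libraries lay below all 3 undifferentiated ones, by far more than the spread within a group. The log2 fold change was -0.63 (SE 0.0539, adjusted p = 1.74e-05), which leaves 64.8% of the undifferentiated level. Of the 15 regions, 11 fell and 4 did not pass, while among all 5hmC regions 50.3% were called, 23.3% lower and 27% higher. The falls numbered 7 without undifferentiated replicate 1 and 5 with DESeq2. The steepest fall lay near the far end of the gene at chr17:58018601-58019400 (hg19), with 1.07, 0.716 and 1.41 CPM in differentiated and 2.60, 2.80 and 1.81 CPM in undifferentiated libraries (log2 fold change -1.07, SE 0.223, adjusted p = 0.00018). The region with most counts, chr17:57985801-57987800, also fell (-0.58, SE 0.151, adjusted p = 0.00175). Before the RPS6KB1 start, at a distance of 2808 bases, chr17:57965401-57967600 fell by 0.47 (SE 0.151, adjusted p = 0.00887) and lies inside the neighbouring gene TUBD1, so that it counts for both genes.

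MTOR encodes the catalytic kinase of both mTOR complexes. Its 33 regions held 175.7, 176.3 and 178.2 CPM in differentiated and 223.3, 219.3 and 201.8 CPM in undifferentiated libraries. The groups did not overlap, and the differentiated libraries lay closer together than the undifferentiated ones. The log2 fold change was -0.28 (SE 0.0534, adjusted p = 0.000827). Among its regions 12 fell (36.4%, beside 23.3% of all 5hmC regions), 1 rose (3.03%, beside 27%) and 20 did not pass. The steepest fall was at chr1:11315201-11316000, within the gene and 6260 bases from the nearest CpG island, where differentiated libraries had 1.24, 0.896 and 1.38 CPM and undifferentiated ones 2.60, 2.85 and 2.84 CPM (log2 fold change -1.14, SE 0.209, adjusted p = 3.38e-05). The most strongly covered region, chr1:11214001-11214400, averaged 7.67 ± 0.907 CPM in differentiated and 11.9 CPM in undifferentiated cells (SD, n = 3) and fell by 0.64 (SE 0.15, adjusted p = 0.000599). The single rise, chr1:11283401-11284200, had 0.72 on the log2 scale (SE 0.27, adjusted p = 0.0226). Of the 2 regions upstream of the MTOR start, the nearer, at 593 bases, had -0.11 (adjusted p = 0.55) and the farther, at 2793 bases, fell by 0.83 (SE 0.192, adjusted p = 0.000567).

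RPTOR encodes RAPTOR, the scaffold that brings substrates such as S6 kinase to mTORC1. It held 86 regions, more than any other of the 9 genes, and 669.8, 679.9 and 638.7 CPM in differentiated against 568.8, 553.7 and 586.7 CPM in undifferentiated libraries. The lowest differentiated library lay above the highest undifferentiated one. The log2 fold change was 0.22 (SE 0.0512, adjusted p = 0.00334), and the gene stayed past the threshold in every alternative that gave a value, between 0.13 and 0.24. Per covered kb, a scale that takes out length but not gene copies, RPTOR had 8.63 CPM in differentiated and 7.42 CPM in undifferentiated cells, RPS6KB1 3.60 and 5.59 CPM, and MTOR 5.81 and 7.07 CPM in the same order of groups. PIK3CD had 5.25 CPM per kb in differentiated and 6.84 CPM per kb in undifferentiated cells.

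Of the 86 RPTOR regions 29 rose (33.7%, beside 27% of all 5hmC regions), 9 fell (10.5%, beside 23.3%) and 48 did not pass, and 66 had a positive fold change. The rises numbered 10 without differentiated replicate 1, 11 without undifferentiated replicate 1 and 14 without differentiated replicate 3. The split also depended on scaling. With library totals in place of TMM, 5 rose and 13 fell, and with TMM on the strongest 10% of regions 3 rose and 14 fell, while the median of all 5hmC regions moved from -0.04 to -0.25 and -0.33. The RPTOR median lay 0.36 above the median of all regions with TMM, a distance that scaling, which shifts all regions alike, hardly moves. With DESeq2, 5 rose and 3 fell.
The largest rise, at chr17:78651201-78651600, rested on few counts, with 33, 8 and 45 counts in differentiated and 16, 18 and 9 in undifferentiated libraries, and the groups overlapped (log2 fold change 1.26, SE 0.3, adjusted p = 0.000789). The region with most counts, chr17:78721601-78723600, had 41.9, 54.5 and 32.5 CPM in differentiated and 38.2, 31.5 and 41.1 CPM in undifferentiated libraries and did not pass (0.21, adjusted p = 0.312).

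Along RPTOR, values are given for 3 intervals that were chosen after the values were seen, as a description without a test. Within the first 50 kb from its most upstream region, 2 of 14 regions rose and 4 fell, with a median log2 fold change of -0.08. Between 50 and 200 kb, 13 of 31 rose and 2 fell, with a median of 0.47, and from 200 kb to the end at 425.8 kb, 14 of 41 rose and 3 fell, with a median of 0.33. The steepest fall was the most upstream region itself, chr17:78513601-78514000, 4626 bases before the listed start, with 0.62, 0.806 and 0.658 CPM in differentiated and 1.36, 1.21 and 1.27 CPM in undifferentiated libraries (log2 fold change -0.93, SE 0.283, adjusted p = 0.00634).

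**Figure D2:**
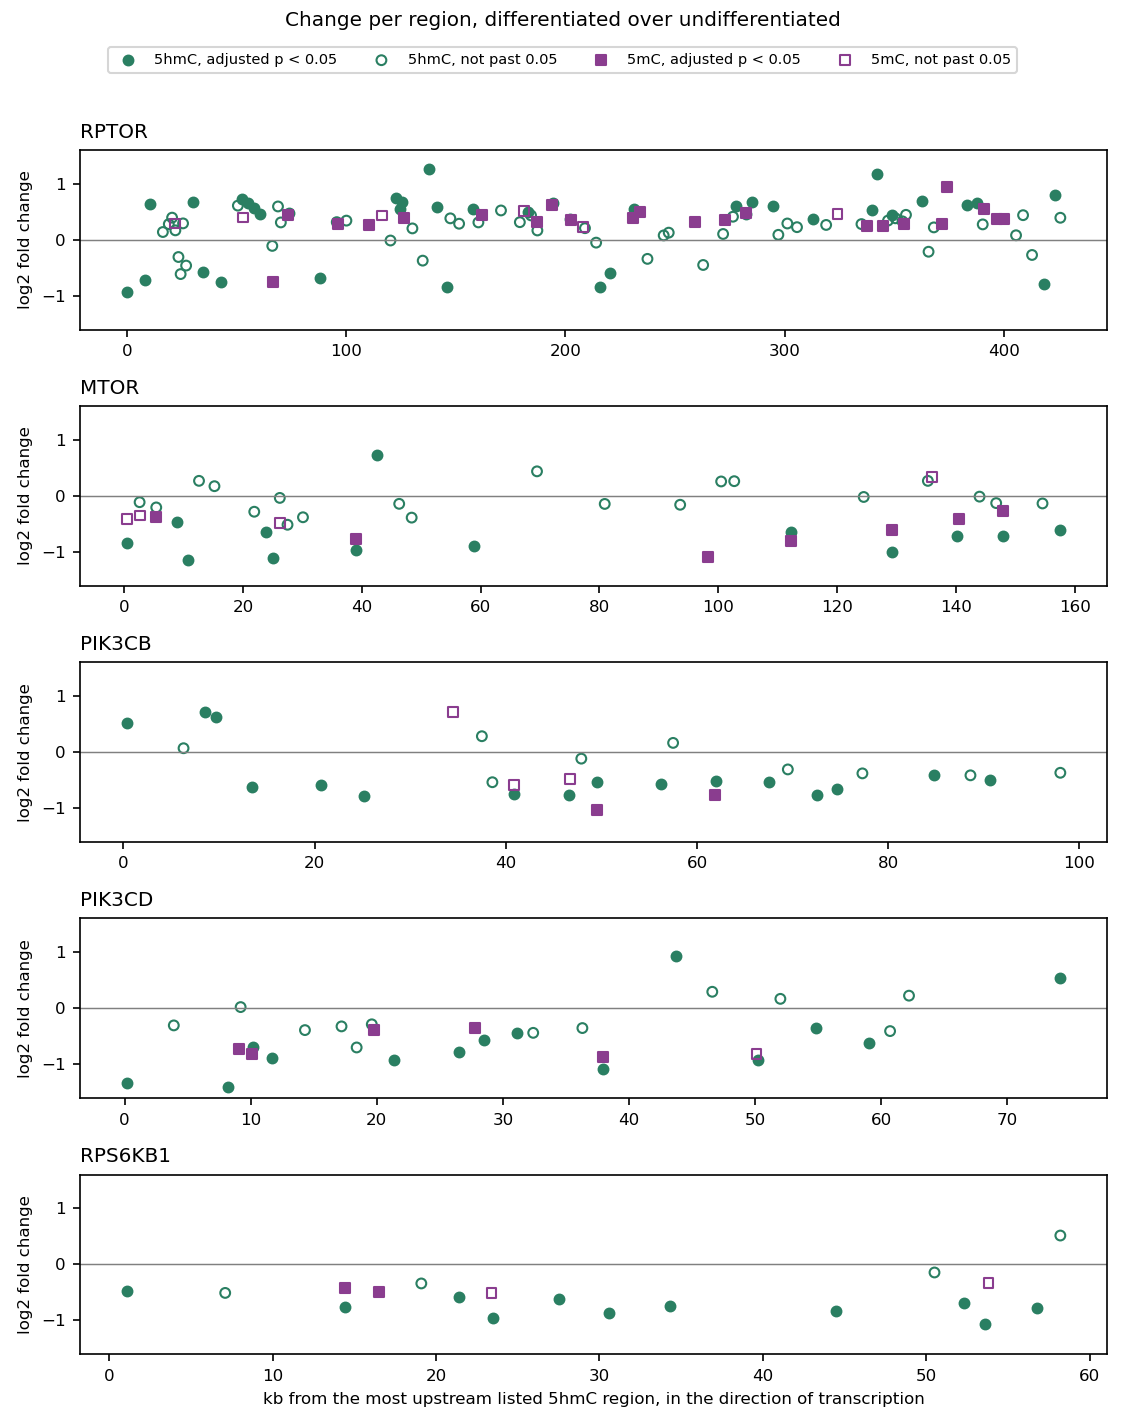
Log2 fold change of each region (vertical axis, differentiated over undifferentiated) against its distance in kb from the most upstream 5hmC region of the gene, for 5hmC (circles) and listed 5mC (squares), with filled symbols for adjusted p under 0.05. In RPTOR 29 of 86 5hmC regions are filled above 0, most of them beyond 50 kb, while in RPS6KB1 all 11 filled 5hmC regions lie below 0.

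Of the 4 catalytic PI3-kinase genes, 3 lost 5hmC and PIK3CG did not pass the test. PIK3CD, which encodes the delta subunit found mainly in leukocytes, had 133.6, 132.3 and 131.3 CPM in differentiated and 181.7, 168.4 and 167.1 CPM in undifferentiated libraries. The groups were well apart, and the log2 fold change was -0.38 (SE 0.0527, adjusted p = 0.000105). Of its 26 regions 12 fell (46.2%, beside 23.3% of all 5hmC regions), 2 rose (7.69%, beside 27%) and 12 did not pass. The falls numbered 7 without differentiated replicate 3 or with DESeq2. The steepest fall was at chr1:9714801-9715200, 1800 bases from a CpG island, with 0.225, 0.627 and 0.595 CPM in differentiated and 1.11, 1.59 and 1.33 CPM in undifferentiated libraries (log2 fold change -1.40, SE 0.315, adjusted p = 0.000425). Before a start, at a distance of 4591 bases, chr1:9706801-9707200 fell by 1.34 (SE 0.29, adjusted p = 0.000282). The larger of the 2 rises lay in a CpG island inside the gene, chr1:9750001-9751000, with 1.24, 1.61 and 1.82 CPM in differentiated and 0.814, 0.868 and 0.845 CPM in undifferentiated libraries (log2 fold change 0.93, SE 0.257, adjusted p = 0.0032). The region with most counts, chr1:9760401-9762800, fell by 0.35 (SE 0.149, adjusted p = 0.0431). Of the PIK3CD regions 4 also belonged to another gene, as did 2 of MTOR and 2 of RPS6KB1.

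PIK3CB encodes the beta subunit, which many cell types express. It had 91.6, 90.9 and 82.9 CPM in differentiated and 107.8, 97.0 and 109.2 CPM in undifferentiated libraries, without overlap (log2 fold change -0.25, SE 0.0622, adjusted p = 0.00461). Of its 25 regions 13 fell (52%, beside 23.3% of all 5hmC regions), 3 rose and 9 did not pass. The falls numbered 2 without undifferentiated replicate 1, 3 without differentiated replicate 3 and 7 without differentiated replicate 1, and DESeq2 called 0 of the 25, with 5 lower and 3 higher at an unadjusted p under 0.05. All 3 rises had their midpoints within 9.70 kb of the upstream edge of its first region, and this stretch held the region with most counts, chr3:138476001-138476800, with 6.37, 8.06 and 4.41 CPM in differentiated and 3.77, 3.96 and 4.95 CPM in undifferentiated libraries. The libraries of that region overlapped (log2 fold change 0.52, SE 0.162, adjusted p = 0.00785). Further along the gene the called regions were lower, down to -0.78 at chr3:138451401-138451800 (SE 0.291, adjusted p = 0.0235). That region had 11, 9 and 24 counts in differentiated and 47, 16 and 29 in undifferentiated libraries, and its groups overlapped in CPM.

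PIK3CA encodes the alpha subunit, the isoform most often mutated in solid tumours. Its 8 regions held 21.3, 26.0 and 23.3 CPM in differentiated and 30.4, 29.9 and 28.9 CPM in undifferentiated libraries, and the groups did not overlap. The log2 fold change was -0.36 (SE 0.0811, adjusted p = 0.00263). Of its regions 2 fell (25%, near the 23.3% of all 5hmC regions), 1 rose (12.5%, beside 27%) and 5 did not pass. The steepest fall was at chr3:178949201-178949600 (-0.77, SE 0.218, adjusted p = 0.00382) and the rise at chr3:178887601-178888000 (0.68, SE 0.245, adjusted p = 0.0185).

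PIK3CG encodes the gamma subunit, which G protein-coupled receptors activate in myeloid cells. It had 16.6, 19.2 and 15.9 CPM in differentiated and 15.4, 15.7 and 16.5 CPM in undifferentiated libraries, with overlap (log2 fold change 0.09, SE 0.101, adjusted p = 0.453). Its 4 regions differed among themselves. The one 4125 bases upstream of the start, chr7:106501201-106501800, rose, with 1.86, 2.87 and 1.94 CPM in differentiated and 1.27, 1.11 and 1.33 CPM in undifferentiated libraries (log2 fold change 0.77, SE 0.223, adjusted p = 0.00457). The region with most counts, chr7:106515601-106517200 inside the gene, fell, with 2.31, 2.51 and 2.35 CPM in differentiated and 3.31, 3.28 and 3.02 CPM in undifferentiated libraries (-0.44, SE 0.173, adjusted p = 0.0292). Another region rose and 1 did not pass. Without the upstream region the gene total had a log2 fold change of -0.11, also short of the threshold.

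PIK3R1 encodes the p85 alpha regulatory subunit, which holds and stabilises the catalytic subunits. It had a single 5hmC region, chr5:67585401-67585800, 668 bases upstream of one of its starts, with 17, 27 and 33 counts in differentiated and 50, 30 and 15 in undifferentiated libraries. At this depth no difference was detectable: the log2 fold change of the region was 0.03 (SE 0.267, adjusted p = 0.939).

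AKT1 encodes the most widely expressed AKT kinase. Its 7 regions held 30.6, 29.7 and 33.8 CPM in differentiated and 26.9, 27.8 and 24.8 CPM in undifferentiated libraries. The groups did not overlap, although the gap between their nearest libraries was smaller than the range within either group. The log2 fold change was 0.26 (SE 0.0783, adjusted p = 0.0142). The call was lost with TMM on the strongest 10% of genes (0.18, adjusted p = 0.109), with DESeq2 (0.26, adjusted p = 0.0727) and without differentiated replicate 3 (0.18, adjusted p = 0.123). Of its regions 1 rose (14.3%, beside 27% of all 5hmC regions) and 6 did not pass. The rise lay in a CpG island inside the gene, chr14:105240201-105240800, with 3.61, 4.66 and 3.48 CPM in differentiated and 2.50, 2.85 and 2.35 CPM in undifferentiated libraries (log2 fold change 0.56, SE 0.169, adjusted p = 0.00598). The region at the start, chr14:105258801-105259600, had 0.07 (adjusted p = 0.776).

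In all, 39 of the 205 regions rose and 60 fell, beside 27% and 23.3% of all 5hmC regions. The libraries of the groups did not overlap in 33 higher and 62 lower regions, beside 52.2% of all regions. RPTOR contributed 29 of the 39 rises, and without it 10 of 119 regions rose and 51 fell. Leaving out the gene with most rises by itself tilts the split toward falls, and regions of 1 gene are not replicates. With library totals in place of TMM the split over all 205 was 7 higher and 82 lower, with TMM on the strongest regions 4 and 93, and with DESeq2 7 and 22. These counts were 18 higher and 39 lower without undifferentiated replicate 1, 18 higher and 38 lower without differentiated replicate 3, and 17 higher and 48 lower without differentiated replicate 1.

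Direction was also read by position relative to CpG islands. Of 14 5hmC regions in an island, 6 rose and 8 did not pass, and 13 of the 14 fold changes were positive. RPTOR held 11 of the 14, all 11 positive and 4 called higher, and the other genes held 3, of which 2 rose. Over all 5hmC regions in islands, 42.1% were higher and 3.77% lower, near the 42.9% higher of the 14. Of the 19 regions within 2 kb of an island 4 rose and 1 fell, where all such regions had 22.5% higher and 22.9% lower. Of the 172 farther regions 29 rose and 59 fell, where the table had 27% higher and 23.7% lower. Without RPTOR, the gene with most rises, 8 of 107 farther regions rose and 50 fell, a split tilted by that choice.

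**Figure D3:**
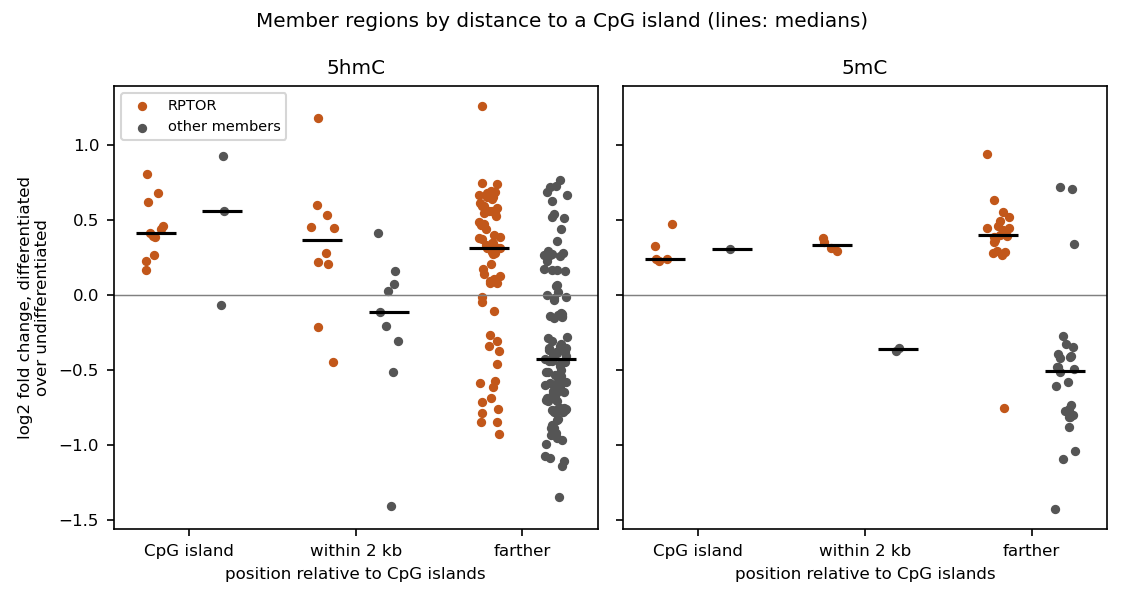
Log2 fold change (vertical axis, differentiated over undifferentiated) of each region of the 9 genes by position relative to CpG islands, for 5hmC (left) and listed 5mC (right), with RPTOR apart from the other genes and a line at each median. Away from islands the 5hmC median is 0.31 in RPTOR and -0.42 in the other genes, a contrast that partly follows from setting apart the gene with most rises.

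The 5mC list holds regions that the authors' own test of the same contrast had already ranked first, so its values are a description and no test is read from them. Over the whole list 72.7% of regions were called, 35.7% higher and 37% lower, and 84.2% of genes, 41% higher and 43.2% lower. In 77.8% of the listed genes the libraries of the groups did not overlap, and this was so in all 7 genes followed here. Summed over its listed regions, 5mC was higher in RPTOR and PIK3CG and lower in MTOR, PIK3CA, PIK3CB, PIK3CD and RPS6KB1.

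RPTOR had 28 listed regions with 1542, 1544 and 1548 CPM in differentiated and 1189, 1161 and 1210 CPM in undifferentiated libraries, a log2 fold change of 0.38 (SE 0.0328). The differentiated libraries lay very close together and well above the others. Of the 28 regions, 27 had a positive value and 21 were called higher. The highest was chr17:78887201-78888000, with 5.29, 4.26 and 4.12 CPM in differentiated and 2.69, 2.40 and 2.02 CPM in undifferentiated libraries (0.94, SE 0.25). The one lower region, chr17:78579801-78580400, had -0.76 (SE 0.239). The region with most counts, chr17:78847401-78854800, which overlaps a CpG island, had 57.2, 65.9 and 61.2 CPM in differentiated and 51.9, 52.9 and 50.8 CPM in undifferentiated libraries. All listed 5mC regions together had a median log2 fold change of 0.22, and the RPTOR median was 0.37. With library totals in place of TMM these medians were -0.03 and 0.12, and the 21 RPTOR calls numbered 0 (3 at an unadjusted p under 0.05 in edgeR). They also numbered 0 with DESeq2 (21 unadjusted), and 12 without differentiated replicate 1 or 2, 13 without differentiated replicate 3 or undifferentiated replicate 2, 14 without undifferentiated replicate 3 and 16 without undifferentiated replicate 1. Of the 6 listed 5mC regions of the 9 genes in CpG islands 4 were called higher, where the list had 70.7% higher and 8.7% lower, and of the 45 far from islands 14 were higher and 17 lower, where the list had 34.7% and 37.8%.

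MTOR had 11 listed 5mC regions, with 252.5, 271.4 and 250.3 CPM in differentiated and 331.4, 342.0 and 310.1 CPM in undifferentiated libraries (log2 fold change -0.35, SE 0.0467). Of these, 10 had negative values, lowest at chr1:11227801-11228400 (-1.09, SE 0.248). PIK3CD had 6 regions, all negative, with 183.7, 179.3 and 184.8 CPM in differentiated and 248.2, 235.9 and 239.2 CPM in undifferentiated libraries (-0.40, SE 0.051). Both genes were thus lower in every differentiated library.
RPS6KB1 had 4 regions, all negative, with 96.0, 91.1 and 89.9 CPM in differentiated and 125.4, 115.6 and 114.0 CPM in undifferentiated libraries (-0.36, SE 0.0695). PIK3CB had 5, of which 4 were negative, with 44.6, 51.1 and 48.4 CPM in differentiated and 68.2, 58.9 and 68.2 CPM in undifferentiated libraries (-0.45, SE 0.0953). PIK3CA had a single region, chr3:178939401-178939800, with 15, 11 and 13 counts in differentiated and 38, 27 and 24 in undifferentiated libraries (gene log2 fold change -1.37, SE 0.274).
PIK3CG differed in direction from the other catalytic subunits, on few listed regions. Its 2 listed regions held 66.6, 62.9 and 60.5 CPM in differentiated and 44.1, 46.1 and 47.8 CPM in undifferentiated libraries (0.46, SE 0.0961). One of them, chr7:106507801-106509800, overlaps a CpG island, with 18.7 ± 1.42 CPM in differentiated and 15.1 ± 0.522 CPM in undifferentiated libraries (SD, n = 3 each; log2 fold change 0.31, SE 0.114), and the other, chr7:106530601-106531000, had 0.71 (SE 0.192).

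**Figure D4:**
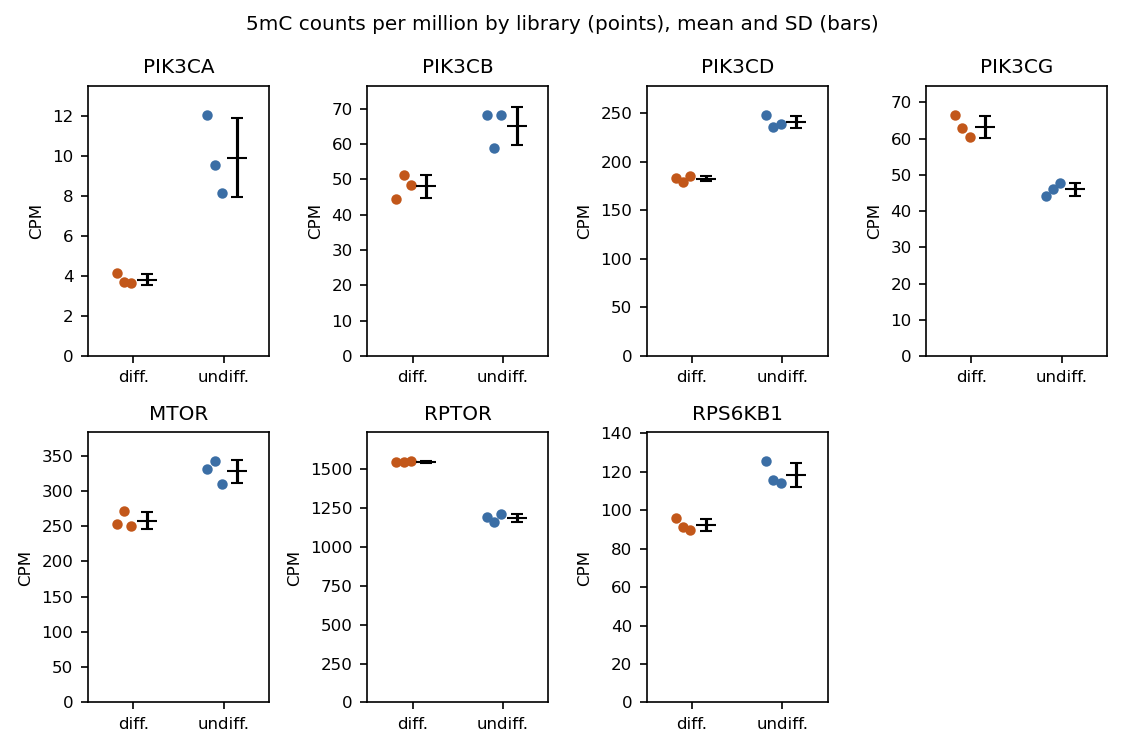
Summed 5mC level over listed regions of the 7 genes that have any, in CPM (vertical axes, starting at 0), with 1 point per library, differentiated (diff.) on the left and undifferentiated (undiff.) on the right, and bars for mean and SD (n = 3 each). RPTOR and PIK3CG are higher and the other 5 lower in all 3 differentiated libraries.

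Regions of the 2 marks shared bases in 51 pairs, which involved 42 of the 57 5mC regions and 51 of the 205 5hmC regions. Both marks were captured from the same DNA preparations, so they are not independent readings, and their values are given side by side without a test. In RPTOR, 21 of 23 pairs were positive in both marks. In MTOR, 10 of 11 pairs were negative in both, as were 8 of 9 in PIK3CD, 4 of 4 in PIK3CB and 3 of 3 in RPS6KB1. Pairs repeat 5mC regions: the 23 of RPTOR hold 18, the 11 of MTOR 10 and the 9 of PIK3CD 6. Only 21 of the 51 pairs were called in both marks, 8 in RPTOR, 5 in MTOR, 5 in PIK3CD, 2 in PIK3CB and 1 in RPS6KB1. The share of like signs among overlapping regions of all genes was not computed. The RPS6KB1 region with most 5mC counts, chr17:57978601-57981000, was the same interval in both tables, with log2 fold changes of -0.77 for 5hmC (adjusted p = 0.000204) and -0.42 for 5mC. The pair at the steepest 5hmC fall of RPS6KB1 had -1.07 for 5hmC and -0.33 for 5mC. Opposite signs occurred in 1 pair of PIK3CD, with 0.02 for 5hmC and -0.73 for 5mC, and in 1 pair of RPTOR, with -0.31 and 0.29.

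**Figure D5:**
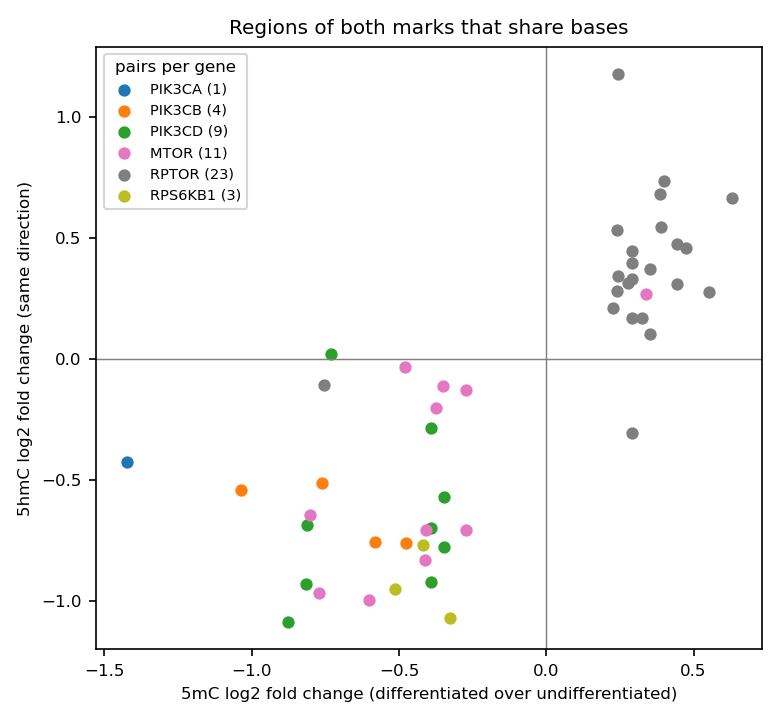
Log2 fold change of 5hmC (vertical axis) against that of 5mC (horizontal axis), both differentiated over undifferentiated, for the 51 pairs of regions that share bases, coloured by gene. RPTOR fills the upper right with 21 of its 23 pairs, while the pairs of PIK3CB, RPS6KB1 and PIK3CA and most of MTOR and PIK3CD lie at the lower left.

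Ratios between genes within a library need no scaling between libraries, and they were added after the values above were seen. The summed 5hmC count of RPTOR over that of MTOR was 3.81, 3.86 and 3.58 in differentiated and 2.55, 2.52 and 2.91 in undifferentiated libraries. RPTOR over RPS6KB1 was 11.6, 12.5 and 10.9 in differentiated and 6.36, 6.30 and 6.72 in undifferentiated libraries. For listed 5mC counts, RPTOR over MTOR was 6.11, 5.69 and 6.19 in differentiated and 3.59, 3.40 and 3.90 in undifferentiated libraries. RPTOR over RPS6KB1 in listed 5mC counts was 16.1, 16.9 and 17.2 in differentiated and 9.48, 10.0 and 10.6 in undifferentiated libraries. The groups did not overlap in any of these ratios. This followed from the gene levels above, where RPTOR was higher and MTOR and RPS6KB1 were lower in every differentiated library. The ratios therefore add no separate reading. These pairs of genes were chosen for their opposite directions, so no test is given.

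The wider pathway was read from a list of 58 other genes. In 5hmC 27 of them fell, 7 rose and 24 did not pass, with a median log2 fold change of -0.18, beside 25.8% lower, 25.7% higher and a median of 0.01 over all genes. The amino acid arm of mTORC1, which reports nutrient supply to the complex, had 6 of 9 genes lower and 3 not past the threshold, and the TSC complex with RHEB, the brake and the activator of mTORC1, had 3 of 4 lower. Of 6 other mTOR complex subunits 1 fell and 1 rose, of 6 AKT substrates 2 fell, and of 5 AKT and related kinases 2 fell and 1 rose. Of 9 regulatory subunits and adaptors 4 fell and 2 rose, of 5 class II and III PI3-kinases 2 fell and 1 rose, and of 7 lipid and AKT phosphatases 3 fell and 1 rose, with a median of 0.07. Among the mTORC1 outputs 4 of 7 fell and 1, the autophagy kinase ULK1, rose (0.25, SE 0.068, adjusted p = 0.0085). The largest falls were RRAGC, a Rag GTPase (-0.74, SE 0.103), RPS6KB2, the second S6 kinase (-0.60, SE 0.0936), and TBC1D7, a TSC complex subunit (-0.56, SE 0.129). RRAGC had 10.1, 11.4 and 11.9 CPM in differentiated and 18.9, 19.1 and 18.5 CPM in undifferentiated libraries. The largest rises were PIK3C2G, a class II PI3-kinase (0.51, SE 0.06), IRS2, an insulin receptor adaptor (0.37, SE 0.0754), and PRR5L, which binds mTORC2 (0.30, SE 0.101). PRR5L had 217.1, 286.0 and 196.8 CPM in differentiated and 185.0, 180.2 and 198.1 CPM in undifferentiated libraries, so that its groups overlapped and differentiated replicate 2 stood highest. PIK3C2G had 70.8, 65.0 and 69.1 CPM in differentiated and 46.6, 50.8 and 48.1 CPM in undifferentiated libraries.

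In the 5mC list, 45 of the 58 genes had regions, 21 lower and 11 higher, with a median of -0.08, beside 43.2% lower, 41% higher and a median of 0.0021 over all listed genes. The largest falls were EIF4B, a translation initiation factor (-0.84, SE 0.231), TBC1D7 (-0.68, SE 0.222) and FOXO3, a transcription factor that AKT restrains (-0.65, SE 0.12). The largest rises were EIF4EBP2, a translation repressor that mTORC1 inactivates (0.71), RHEB (0.60) and TSC1 (0.51).

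The gene whose 5hmC profile over the 6 libraries came nearest to each of the 9 was sought among the other 66 genes of the pathway list and the 9 together, by the root mean square difference of log2 CPM after centring each gene. RPTOR was nearest to INPPL1, a lipid phosphatase gene (0.04), and RPS6KB1 to EIF4EBP1, which encodes another mTORC1 target (0.0837). MTOR was nearest to PHLPP1, an AKT phosphatase gene (0.0486), and PIK3CD to DEPDC5, of the amino acid arm (0.0284). PIK3CB was nearest to TSC1 (0.0394), PIK3CA to WDR59 (0.0603), PIK3CG to INPP5D (0.0518), AKT1 to AKT1S1 (0.0947) and PIK3R1 to FOXO4 (0.362). These values describe 6 libraries that fall into 2 groups, so that a shared group difference alone brings genes close.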

How the data were processed

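Antibody-captured DNA of HL-60 cells was measured in 12 libraries, 3 per state and mark. The submitters' processing notes name these tools without their roles: edgeR 2.11, SICER 1.1, BWA, bedtools 2.17.0 and SAMtools 0.1.18, and the build hg19. The authors deposited raw read counts per region and library, the log2 fold change and mean log2 CPM of each region, its p-value and adjusted p-value, and distances to genes, starts and CpG islands. From the counts, the deposited log2 fold change runs undifferentiated over differentiated; it was not used here. The 5hmC table lists 327949 regions, of which 18 lack a count and were left out. The deposited 5mC table holds 65535 regions with p-values up to 0.0165 and adjusted p-values up to 0.0826, which implies 328588 tests, so it is a selected list, and the depth of the 5mC libraries is unknown. Starts and ends are 1-based, and exons and introns were not told apart.

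Counts were fitted in R 4.3.3 with edgeR 4.0.16 (filterByExpr, TMM, glmQLFit and glmQLFTest) for regions and for sums per gene, 3 differentiated against 3 undifferentiated libraries, and adjusted over all genes or regions, for 5mC regions over the 328588 implied tests. A region near several genes counts for each. SE is the log2 fold change divided by the square root of F. Alternatives were library totals, TMM on the strongest 10%, DESeq2 1.42.0, no filter, each replicate left out, a replicate block and other gene windows. The procedure was also run on simulated counts in which few features changed, as many up as down. Scaling between libraries under wide change was not tested there. The genes, the list of 58 and the tests were chosen with earlier results of these data known. Named regions are the largest rise and fall past the threshold and the highest mean count per gene and mark, plus regions near a start. Named pathway genes are the 3 largest called rises and falls per mark; ULK1 was added after its values were seen. Promoters are from RefSeq GRCh38.p14, in which all 9 symbols matched.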

Additional observations from a re-analysis of the deposited data

How the results depend on the processing

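At gene level the direction and the call of RPTOR, RPS6KB1, PIK3CA, PIK3CB and PIK3CD in 5hmC held in every alternative that gave a value. The 5mC genes also kept their direction, which the selection of the list by the same contrast makes no evidence of stability. Library scaling moved the counts of regions. For 5hmC, library totals gave 7 higher member regions, TMM on the strongest 10% gave 4 higher and 93 lower, and DESeq2 gave 7 higher and 22 lower, with 66462 regions called in all against 164889. For 5mC, edgeR on library totals and on the strongest 10% gave 0 higher member regions (4 and 3 at an unadjusted p under 0.05) and 26 lower, against 22 higher and 18 lower, and DESeq2 0 higher (24 unadjusted) and 3 lower, with 3408 regions called against 47650.

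Leaving out 1 replicate at a time gave 102900 to 168726 called 5hmC regions, 17 to 48 higher and 38 to 60 lower member regions, and 1 to 2 higher member genes. For 5mC it gave 29080 to 30539 called regions, with 13 to 16 higher and 11 to 16 lower member regions.

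AKT1 was the gene that left the count of 2 higher 5hmC genes at 1 under TMM on the strongest 10% and under DESeq2. With only regions within 2 kb of a start, 4920 of 11040 5hmC genes were called, 2606 lower and 2314 higher. In 5mC 2174 of 2720 listed genes were called, 1166 lower and 1008 higher. Only 5 member genes could be tested in 5hmC and 2 in 5mC. RPTOR, whose only region near a start lies 4626 bases before it, was not among them. Of the 5 in 5hmC, 2 were lower and 0 higher. Of the 2 in 5mC, 2 were lower and 0 higher (edgeR, 0 higher also at an unadjusted p under 0.05). The 5mC counts were added after the data were seen. In 5hmC AKT1 had -0.017 and MTOR -0.20. PIK3R1 changed sign with DESeq2 (0.11), with the scaling of the region table (0.015) and over replicates left out (-0.36 to 0.25). PIK3CG had -0.11 from gene body regions. The cause of these changes was not tested. Some of these settings, though not all, leave fewer regions or samples.

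The labels do not say whether same-numbered samples were handled together. Same-numbered 5hmC gene profiles correlated at -0.01, -0.15 and -0.17 about their group means, and unlike-numbered ones at -0.05 to 0.17. Deviations from a mean of 3 libraries depend on each other, so these values cannot settle whether samples were paired. With a replicate block 8855 5hmC genes were called against 10538, member regions were 29 higher and 54 lower, and PIK3R1 had 0.12; the counts of called 5hmC member genes stayed at 2 higher and 5 lower.

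Low counts limit single regions, most of all the 1 region of PIK3R1, and the 5mC list holds no region that ranked below its cut.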
